A study of Homo sapiens with 6 samples.

Results

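Expression of 9 tight junction genes, out of 21475 genes with a value, was examined in WT and *FGFR2* KO HaCaT keratinocytes. They encode the claudins *CLDN1*, *CLDN4*, *CLDN7* and *CLDN12*, occludin (*OCLN*), the junctional adhesion molecule JAM-A (*F11R*), the zonula occludens proteins ZO-1 (*TJP1*) and ZO-3 (*TJP3*), and cingulin (*CGN*). The genes were chosen by symbol, as tight junction genes of the epidermal barrier, and all 9 were found by their Ensembl identifier and passed the filter on low values. The study cites lower expression of tight junction components, which it does not name, in mice without both *Fgfr1* and *Fgfr2* in keratinocytes. HaCaT cells are human keratinocytes that became immortal spontaneously in culture, and 3 WT and 3 *FGFR2* KO cell lines were compared by RNA-seq of polyadenylated RNA, with 1 library per cell line. The KO lines had been made with Cas9 and a guide RNA against a coding exon of *FGFR2* and grown from single cells, so that each KO line is a clone, and the cells of both groups were grown in medium with serum and received no further treatment. The study describes its WT lines both as clones and, for 1 of them, as the original population that was not cloned, whereas it gives the sequenced lines as clonally expanded, and which WT line gave which library is not known here. HaCaT clones of this kind have been described as unable to complete terminal differentiation in layered culture, which limits them as a model of the barrier.

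Tight junctions seal the space between neighbouring epithelial cells. Claudins are membrane proteins that form the junctional strands and set which ions and solutes pass between the cells, and occludin joins the strands as a MARVEL domain protein. JAM-A is an immunoglobulin-like adhesion protein at the same site, and the zonula occludens proteins and cingulin are cytoplasmic scaffolds that tie the strands to the actin cytoskeleton. In the epidermis, functional tight junctions lie in the granular layer, and mice without claudin-1 die of water loss through the skin.

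The authors deposited the level of each gene as FPKM, which scales the fragments of a gene by its length and by the depth of the library. From the steps between low values, the depth was estimated as 67200000 to 87000000 fragments per library. *FGFR2* itself, the targeted gene, had 21.6, 39.7 and 15.0 FPKM in WT replicates 1 to 3 and 3.04, 2.26 and 4.31 FPKM in the KO libraries, so that the groups did not overlap. Its log2 fold change was -2.73 (limma, unadjusted p = 9.2e-05, adjusted p = 0.261). The basal keratinocyte markers *KRT5*, *KRT14* and *TP63* were high in all 6 libraries, with at least 6086 FPKM for *KRT5* and at least 116 FPKM for *TP63*. The summed level of 12 differentiation markers ranged from 1573 to 8608 FPKM in WT and from 540 to 5523 FPKM in KO, with the lowest sum in KO replicate 3. Of markers of other cells, 3 of 6 for fibroblasts, 2 of 4 for endothelial cells, 3 of 4 for melanocytes and 3 of 4 for leukocytes stayed under 0.5 FPKM in every library. The endothelial gene *VWF* had 18.0, 19.2 and 27.1 FPKM in WT and 17.4, 15.6 and 5.66 FPKM in KO, so that the groups did not overlap, and the collagen gene *COL1A1* had 6.82 to 16.7 FPKM over the 6 libraries. *DCN*, a fibroblast matrix gene, with 15.5 FPKM, and *CDH5*, an endothelial cadherin gene, with 4.92 FPKM, were highest in WT replicate 2. *LUM*, another fibroblast matrix gene, was too low to be tested. It was highest in KO replicate 1, with 1.85 FPKM, and had 0.903 FPKM in WT replicate 2. Of the 18 markers of other cells, 6 were tested. All 6 had negative log2 fold changes, against 4821 of all 12241 genes tested. Their median was -0.67, and 0 of them passed the unadjusted threshold in limma. The share of the summed FPKM taken by mitochondrial genes ranged from 21.5 to 27.6% in WT and was 15.8, 23.7 and 11.9% in KO replicates 1 to 3.

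Across the 9 genes, ZO-3 stood apart: its mRNA had a mean of 36.9 FPKM in KO against 84.6 FPKM in WT, while the other 8 genes differed by no more than 0.33 on the log2 scale. JAM-A mRNA was also lower in every KO library than in every WT library, but by a smaller amount. The groups overlapped for the 4 claudins, occludin, ZO-1 and cingulin. The comparison used limma on log2(FPKM + 0.5) over the 12241 genes whose mean level reached 0.5 FPKM. With thresholds of 0.05 for the adjusted p and of 0.5 for the size of the log2 fold change in either direction, it called 0 of the 9 genes and 0 of all genes tested (0%), with a smallest adjusted p of 0.261. With the same thresholds but an unadjusted p, 1536 genes passed, 1251 higher (10.2% of those tested) and 285 lower (2.33%) in KO, or 818 higher and 489 lower after scaling of the libraries by the median of ratios. Of the 9 genes, 0 passed as higher and 1, *TJP3*, as lower. All KO libraries lay below all WT libraries for 2 of the 9 genes, against 5.77% of all genes tested, and above them for 0 of the 9, against 18.3%. The median log2 fold change of the 9 genes was -0.13, beside 0.09 over all genes tested. The smallest p that an exact two-sided permutation test of a single gene can give is 0.1 in this design. The study compared its WT and KO lines with DESeq2, a test for counts. It reported differentially expressed genes after adjustment, with *FGFR2* strongly lower. Limma on FPKM is another test, so the 0 genes called here do not mean that no gene differed. With 1 library per cell line, differences between lines cannot be told apart from those between cultures or library preparations. The p-values set the difference between the groups against this mixed spread. In bulk RNA, fewer cells that express a gene and less of its RNA per cell cannot be told apart.

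**Figure D1:**
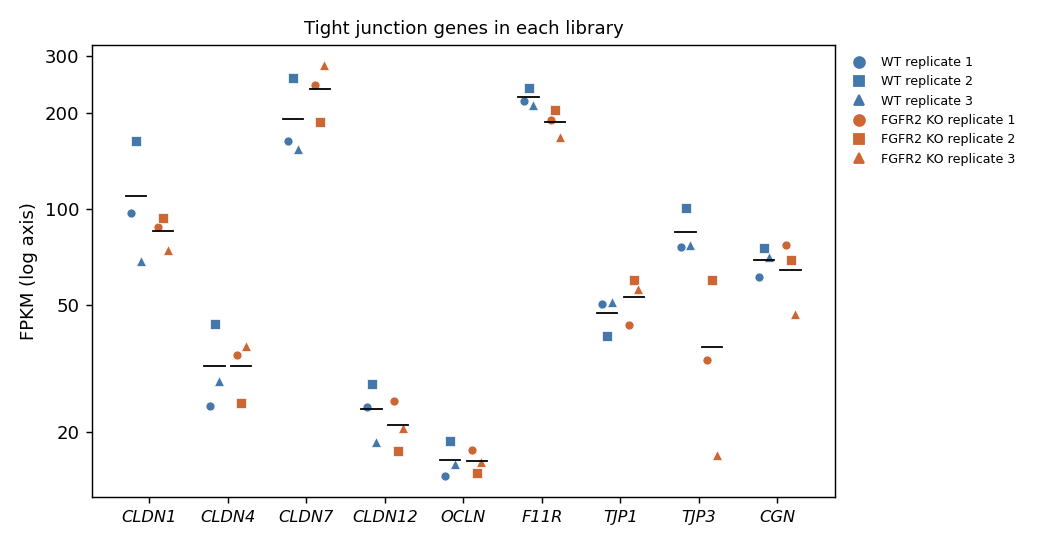
FPKM (log axis) of the 9 tight junction genes in the 3 WT (blue) and 3 FGFR2 KO (orange) libraries, with marker shapes for the replicate number and black lines for the group means. The 3 KO values of TJP3 lie from 16.9 to 60.0 FPKM, below the WT values of 76.0 to 100.4 FPKM, whereas the values of both groups overlap for the claudins, OCLN, TJP1 and CGN.

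*TJP3* (ENSG00000105289) lies on the plus strand of chromosome 19, from 3708362 to 3750813 in GRCh38. ZO-3 is a PDZ domain scaffold of the same family as ZO-1, restricted mostly to epithelia. RefSeq (GRCh38.p14) gives the gene a pair of start sites, and the bases before each of them are shown here because *TJP3* was the gene with the largest difference. They are written 5′ to 3′ on the strand of the gene and end at the first annotated exon, with GC boxes (GGGCGG or CCGCCC, the letters bound by SP1 and related factors) in capitals.
*TJP3* first start, chr19:3708134-3708361, plus strand: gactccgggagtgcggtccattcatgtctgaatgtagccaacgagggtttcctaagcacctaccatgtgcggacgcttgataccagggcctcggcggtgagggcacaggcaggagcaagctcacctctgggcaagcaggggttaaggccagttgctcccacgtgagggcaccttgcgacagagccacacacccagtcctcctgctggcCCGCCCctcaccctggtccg
*TJP3* second start, chr19:3721487-3721616, plus strand: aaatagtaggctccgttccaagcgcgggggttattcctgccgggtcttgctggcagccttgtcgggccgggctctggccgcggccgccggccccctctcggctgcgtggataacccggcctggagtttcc
The first stretch holds 1 GC box shortly before the start, and the second holds none in the bases shown. Over the full 250 bases before a start, a GC box on either strand was found in 10 of 14 windows of the genes studied that RefSeq lists, including both of *TJP3*, beside 42.6% of 35116 windows of all genes. Cingulin had 5 matches in its window and *CLDN12* had 0. All motifs were searched on both strands and may overlap each other. An AP-1 motif (TGACTCA or TGAGTCA) was found only in the window of *CLDN4*, and occurs in 4.2% of all windows. The E-box bound by SNAI factors (CACCTG or CAGGTG) was found in 5 of the 14 windows and in 17.5% of all windows, and 4 of its matches lay in 1 window of *CLDN7*. The grainyhead motif AACCGGTT was found in 0 of the 14 windows and in 0.117% of all windows. No window was listed for *F11R*.

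*TJP3* had 76.0, 100.4 and 77.3 FPKM in WT replicates 1 to 3 and 33.8, 60.0 and 16.9 FPKM in KO replicates 1 to 3. The groups did not overlap, but the KO lines also differed among themselves, with KO replicate 3 far below KO replicate 2. The mean was 84.6 ± 13.7 FPKM (SD, n = 3 cell lines) in WT and 36.9 ± 21.7 FPKM (SD, n = 3) in KO, which is 43.6% of WT. The log2 fold change was -1.35 with a standard error of 0.41 and a 95% interval from -2.30 to -0.41 (limma, unadjusted p = 0.0113, adjusted p = 0.261). The exact two-sided permutation p was 0.1, the smallest that 3 libraries against 3 allow. The lowest library held an estimated 4491 fragments of *TJP3*, for which counting error alone is 1.49% of the value, so that the spread between the lines was far above counting error. The size of the difference rested on single KO lines, since the log2 fold change was -0.89 without KO replicate 3 and -1.79 without KO replicate 2. When libraries were weighted by their estimated precision, *TJP3* reached an adjusted p of 0.0349 in limma, at a log2 fold change of -1.12, but WT replicate 1 then carried a weight of 10.3 and each of the other libraries at most 1.49.

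The differentiation markers were set beside *TJP3*, library by library. Of the 11 tested, 0 had a positive log2 fold change, against 7420 of all 12241 genes tested. The unadjusted threshold was passed as lower by 1 of them, against 2.33% of all genes tested. Their median log2 fold change was -0.62, beside 0.09 over all genes tested. All KO libraries lay below all WT libraries for 0 of the 11, against 5.77% of all genes tested. They lay above them for 0 of the 11, against 18.3%. For 9 of the 11 markers KO replicate 3 was the lowest KO library, as for *TJP3*. KO replicate 1 was the highest KO library for 9 of the 11, including *KRT1* and *KRT10*. WT replicate 2 was the lowest WT library for 10 of the 11. *TJP3* was highest in KO replicate 2 and WT replicate 2 of their groups. *KRT1*, a suprabasal keratin, had 2254, 435 and 5121 FPKM in WT and 3024, 1145 and 259 FPKM in KO. *IVL*, the gene of the cornified envelope protein involucrin, was the highest in KO replicate 2 like *TJP3*, with 338, 324 and 180 FPKM in WT and 79.7, 265 and 81.8 FPKM in KO. It was the marker past the unadjusted threshold, with a log2 fold change of -1.17 (limma, unadjusted p = 0.0432, adjusted p = 0.285). *VWF* was also lowest in KO replicate 3. KO replicates 1 and 3, in which *TJP3* was lowest, also had the lowest mitochondrial shares, 15.8 and 11.9%. The part of differentiation state, of cells that express *VWF* and of the mitochondrial share in the *TJP3* difference was not tested. The 916 tested genes of chromosome 19 were compared with their WT mean. Their median log2 difference was 0.14, 0.08 and 0.06 in KO replicates 1 to 3, beside 0.10, 0.05 and 0.15 over all genes tested. With chromosome medians removed, the log2 fold change of *TJP3* was -1.45, and it was also -1.45 with median-of-ratios scaling alone. The part of chromosome 19 in the difference was not tested.

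ZO-1 mRNA did not follow that of ZO-3. *TJP1* (ENSG00000104067), on chromosome 15 (minus strand, 29699367 to 29968915), had 50.4, 40.1 and 51.0 FPKM in WT and 43.3, 60.1 and 56.2 FPKM in KO. KO replicates 2 and 3 lay above all WT libraries, and KO replicate 1 lay among them. Its log2 fold change was 0.17 with a standard error of 0.17 (limma, adjusted p = 0.638), and the 95% interval ran from -0.24 to 0.57.

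Within a library, the ratio of *TJP3* to *TJP1* does not depend on how libraries are scaled to each other. It was 1.51, 2.50 and 1.51 in WT and 0.781, 0.998 and 0.301 in KO. *TJP3* thus exceeded *TJP1* in the 3 WT libraries and lay below it in the 3 KO libraries, although in KO replicate 2 both genes had about the same level. The mean log2 ratio was lower by 1.54 in KO (log2 difference -1.54), with an exact two-sided permutation p of 0.1, or 0.4 after adjustment over the 4 ratios tested. The difference was -1.02 without KO replicate 3 and -1.88 without KO replicate 2. The ratio of *OCLN* to *TJP1* was 0.289, 0.468 and 0.313 in WT and 0.406, 0.248 and 0.288 in KO, with overlapping groups (exact permutation p = 0.5, adjusted p = 0.6).

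Cingulin (*CGN*, ENSG00000143375), on chromosome 1 (plus strand, 151510510 to 151538692), binds the zonula occludens proteins and myosin. It had 61.2, 75.5 and 70.9 FPKM in WT and 77.3, 69.2 and 46.9 FPKM in KO. KO replicate 1 was the highest and KO replicate 3 the lowest of the 6 libraries. The log2 fold change of -0.13, with a standard error of 0.20 and an adjusted p of 0.766 in limma, came from KO replicate 3, without which it was 0.08.

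*F11R* (ENSG00000158769), on chromosome 1 (minus strand, 160995211 to 161021343), encodes JAM-A. It had 218, 240 and 212 FPKM in WT and 190, 204 and 168 FPKM in KO, so that the groups did not overlap, although the gap between KO replicate 2 and WT replicate 3 was small. The mean was 223 ± 14.6 FPKM (SD, n = 3) in WT and 188 ± 18.3 FPKM (SD, n = 3) in KO, or 84.0% of WT. The log2 fold change was -0.25 with a standard error of 0.14 and a 95% interval from -0.58 to 0.07 (limma, adjusted p = 0.379), and the exact two-sided permutation p was 0.1. The level of *F11R* may also be affected by reads shared with a second gene, which FPKM alone do not settle. Of the distinct 31-base stretches in the annotated *F11R* transcripts, 41.5% also occur in transcripts of other genes, mostly in those of ENSG00000270149, a readthrough gene that runs through *F11R*. That gene was listed at 2.66, 12.4 and 7.96 FPKM in WT and at 29.8, 10.1 and 27.5 FPKM in KO, so that it was highest in KO replicates 1 and 3, in which *F11R* was lowest. With both genes summed, the values were 221, 252 and 220 FPKM in WT and 220, 214 and 195 FPKM in KO, the groups overlapped, and the log2 difference was -0.14 with an exact two-sided permutation p of 0.2. The sum was chosen after the values had been seen.

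Occludin mRNA (*OCLN*, ENSG00000197822, chromosome 5, plus strand, 69492292 to 69558104) hardly differed between the group means. It had 14.6, 18.8 and 16.0 FPKM in WT and 17.6, 14.9 and 16.2 FPKM in KO, with all 3 KO values inside the range of WT. The log2 fold change was -0.01 with a 95% interval from -0.37 to 0.34 (limma, adjusted p = 0.973). Of its 31-base stretches, 13.02% occur in other genes too, and 5.15% in the pseudogene *OCLNP1*, which is not among the genes analysed here. *MARVELD2*, which encodes tricellulin and was looked at as the closest relative of occludin, had 12.1 to 16.0 FPKM in WT and 14.3 to 16.1 FPKM in KO. *MARVELD3*, the other family member, had 10.1 to 12.7 FPKM in WT and 10.5 to 14.8 FPKM in KO, and the log2 fold changes of both genes were 0.15 and 0.14 with adjusted p-values of 0.619 and 0.701 in limma.

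Among the claudins, *CLDN7* had the highest mRNA level. *CLDN7* (ENSG00000181885), on chromosome 17 (minus strand, 7259903 to 7263983), had 164, 258 and 154 FPKM in WT and 244, 187 and 282 FPKM in KO. WT replicate 2 lay among the KO values, and KO replicate 3 was the highest library. The log2 fold change was 0.33 with a standard error of 0.24 and a 95% interval from -0.24 to 0.89 (limma, adjusted p = 0.502). Without WT replicate 2 it was 0.56 with an unadjusted p of 0.029 in limma, past the unadjusted threshold. The 757 tested genes of chromosome 17 were also set against their WT level. Their median log2 values were 0.06, 0.13 and -0.18 in WT replicates 1 to 3 and 0.08, 0.20 and 0.24 in KO. *CLDN7* itself had -0.19, 0.46 and -0.27 in WT and 0.39, 0.0036 and 0.59 in KO. WT replicate 3 was lowest and KO replicate 3 highest for both. In WT replicate 1 the chromosome median was 0.06 and *CLDN7* was at -0.19. In KO replicate 2 they were at 0.20 and 0.0036. The log2 fold change of *CLDN7* was 0.14 with chromosome medians removed and 0.23 with median-of-ratios scaling alone. The part of chromosome 17 in the *CLDN7* values was not tested.

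*CLDN1* (ENSG00000163347), on chromosome 3 (minus strand, 190305707 to 190322446), had 97.2, 164 and 68.6 FPKM in WT and 87.9, 94.0 and 74.4 FPKM in KO. The 3 KO values all lay inside the range of WT, which was wide because of WT replicate 2. The coefficient of variation was 44.4% in WT and 11.7% in KO, and the log2 fold change was -0.28 with a standard error of 0.30 (limma, adjusted p = 0.65). Without WT replicate 2, its sign turned and it was 0.06.

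*CLDN4* (ENSG00000189143), on chromosome 7 (plus strand, 73799542 to 73832690), had 24.1, 43.7 and 28.9 FPKM in WT and 34.9, 24.6 and 37.2 FPKM in KO. Its means were 32.3 ± 10.2 and 32.2 ± 6.68 FPKM (SD, n = 3 each), and the log2 fold change was 0.02 with a 95% interval from -0.57 to 0.61 (limma, adjusted p = 0.974). The sign of this small value turned under several scalings. *CLDN12* (ENSG00000157224), on the same chromosome and strand from 90383721 to 90513402, encodes a claudin that lacks the PDZ binding end by which most claudins hold on to zonula occludens proteins. It had 24.0, 28.4 and 18.7 FPKM in WT and 25.1, 17.5 and 20.7 FPKM in KO, with a log2 fold change of -0.16 and a standard error of 0.20 (limma, adjusted p = 0.7). Both groups covered much the same range for both genes. Of the 31-base stretches of *CLDN12*, 17.1% also occur in other genes, such as *PTTG1IP2*, listed at 0, and *GTPBP10*, and of those of *CLDN4* and *CLDN7*, 3.03 and 9.51%, so that their levels are less certain than those of *CLDN1*, which shares 0%.

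The makeup of the claudin mRNA leaned more to *CLDN7* in KO, but the groups overlapped. Over 24 claudin genes, summed FPKM was 331, 521 and 280 in WT and 402, 342 and 426 in KO, and the 4 claudins described above supplied from 93.4 to 97.6% of it. *CLDN7* alone held 51.3 ± 3.21% (SD, n = 3) in WT and 60.5 ± 5.73% (SD, n = 3) in KO, and *CLDN1* held 28.4 ± 3.58% in WT and 22.3 ± 5.01% in KO (SD, n = 3 each). The share of *CLDN7* was 49.4, 49.4 and 55.0% in WT and 60.8, 54.6 and 66.1% in KO, so that KO replicate 2 lay just below WT replicate 3. The ratio of *CLDN7* to *CLDN1* was 1.68, 1.57 and 2.25 in WT and 2.78, 1.99 and 3.79 in KO. The log2 ratio was higher by 0.61 in KO, with overlapping groups (exact permutation p = 0.2, adjusted p = 0.4), and by 0.38 without KO replicate 3. For *CLDN4* against *CLDN1*, the difference was 0.30 (exact permutation p = 0.6, adjusted p = 0.6), and it ranged from 0.0883 without KO replicate 3 to 0.55 without KO replicate 2.

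**Figure D2:**
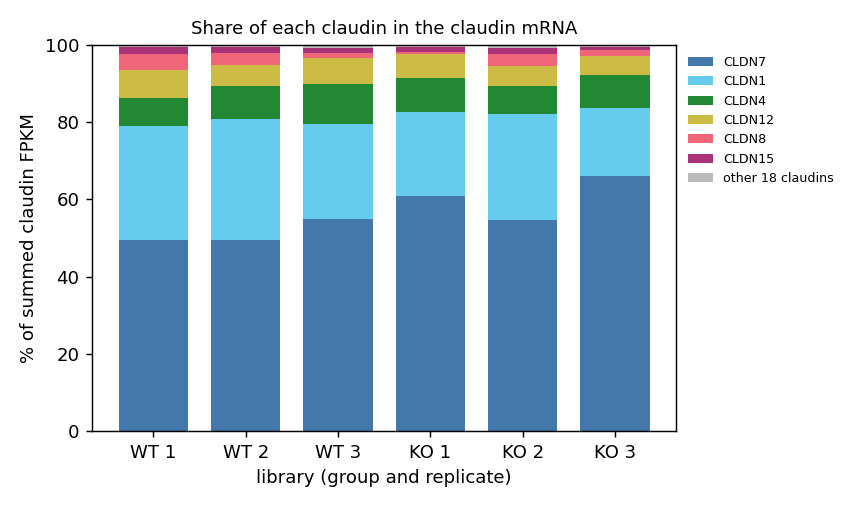
Share of each claudin gene in the summed FPKM of 24 claudins, in % per library, for the 6 highest genes and the other 18 together. CLDN7 holds from 49.4 to 66.1% and CLDN1 from 17.5 to 31.4% of the claudin mRNA in each library.

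The remaining claudins were low. *CLDN8*, which encodes a claudin known from the kidney collecting duct, had 14.2, 15.9 and 3.81 FPKM in WT and 1.42, 11.04 and 5.98 FPKM in KO. It varied widely between lines and overlapped between groups, with a log2 fold change of -0.95 ± 0.73 (SE) and an adjusted p of 0.516 in limma. *CLDN15* had 3.95 to 7.95 FPKM in WT and 4.22 to 5.86 FPKM in KO, and *CLDN9* and *CLDN16* had means of 0.630 and 0.745 FPKM over the 6 libraries. The log2 fold changes of *CLDN15*, *CLDN9* and *CLDN16* were -0.13, -0.19 and -0.42, with adjusted p-values of 0.822, 0.706 and 0.509 in limma. A further 11 claudin genes had means above 0 but under 0.5 FPKM and were not tested. Of these, *CLDN23* had 0.182, 0.457 and 0.259 FPKM in WT and 0.588, 0.550 and 0.719 FPKM in KO, so that its groups did not overlap, from an estimated 32 to 134 fragments per library. *CLDN5*, *CLDN14*, *CLDN19*, *CLDN20* and *CLDN25* were listed at 0 in all libraries.

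In WT, the mean level followed the order *F11R*, *CLDN7*, *CLDN1*, *TJP3*, *CGN*, *TJP1*, *CLDN4*, *CLDN12* and *OCLN*, from 223 to 16.4 FPKM. Only *TJP3* against *CGN*, and *CGN* against *TJP1*, did not overlap with the next gene in this order, so that the ranges over lines do not separate the other neighbours. Within each of the 3 WT libraries, however, *CLDN7* lay above *CLDN1*, *CLDN4* above *CLDN12* and *CLDN12* above *OCLN*. In KO the order was *CLDN7*, *F11R*, *CLDN1*, *CGN*, *TJP1*, *TJP3*, *CLDN4*, *CLDN12* and *OCLN*. Here *F11R* against *CLDN1* was the only pair of neighbours whose ranges did not overlap. *TJP3* moved from the fourth to the sixth place, and in KO replicate 3 it ranked eighth of the 9 genes. *OCLN* had the lowest level of the 9 in each of the 6 libraries, yet stood above 50.1% of all genes tested, while *CLDN7* stood above 96.6% of them. WT replicate 2 was the highest WT library for 8 of the 9 genes, all except *TJP1*, for which it was the lowest. The median log2 difference of all genes tested from their WT mean was also highest there. It was -0.0447, 0.0334 and 0.015 in WT replicates 1 to 3.

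**Figure D3:**
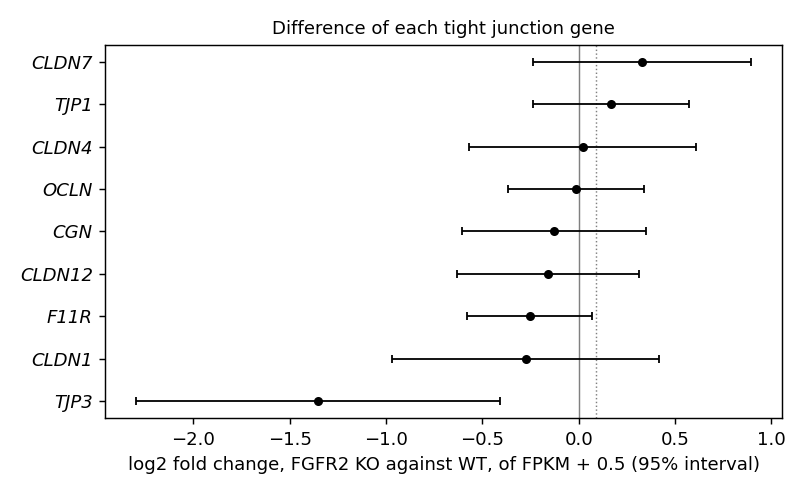
Log2 fold change of FPKM + 0.5 between FGFR2 KO and WT for each tight junction gene, with 95% intervals from limma over 6 libraries. The dotted line marks the median of all tested genes, 0.09, and only the interval of TJP3, from -2.30 to -0.41, does not reach 0.

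The genes with the most similar pattern over the 6 libraries were found by Pearson's r of log2(FPKM + 0.5) among the genes tested. For *TJP3* these were *CARF*, *MAVS* and *PHF21A* (r = 0.997, 0.995 and 0.993), and 146 genes had an r of at least 0.95. For *F11R* they were *ABCC5*, *PBXIP1* and *MOB2* (r = 0.9996, 0.9989 and 0.9986), with 193 genes at or above that value. *F11R* and *TJP3* themselves had an r of 0.975 over the 6 libraries. The closest to *CLDN7* were *MST1R*, *APLP2* and *RPL19*, to *CLDN4* *RPL15*, *USP38* and *RPL31*, to *CLDN1* *IQCK*, *KBTBD3* and *TLE2*, and to *CLDN12* *SLC35A5*, *KANTR* and *CEP68*. *VPS28*, *RBM4* and *NDUFA3* were closest to *OCLN*, *KIF3A*, *MTRFR* and *DDX46* to *TJP1*, and *MAML3*, *DUOX1* and *IL20RB* to *CGN*. With only 6 libraries that share their scaling, and 12241 genes searched, such values describe these libraries and carry no test.

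A wider list of 58 tight junction genes without the 9 above was examined to see which other parts of the junction differed. Of these, 35 were tested, 0 were called after adjustment (limma), 2 passed the unadjusted threshold as higher, against 10.2% of all genes tested, and 1 as lower, against 2.33%. Their median log2 fold change was -0.02. All KO libraries lay below all WT libraries for 4 of the 35 genes, against 5.77% of all genes, and above them for 2, against 18.3%. The 4 further scaffold genes named here (*MAGI1*, *MAGI3*, *PATJ* and *AFDN*) had log2 fold changes from -0.30 to 0.08, and none of them passed.

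Among the 4 genes that were lower in every KO library, 3 belong to the 9 polarity genes tested (5.77% of all genes tested did so), and 1 of them passed the unadjusted threshold. *PRKCZ*, which encodes the atypical protein kinase C zeta of the PAR complex, had 49.2, 58.4 and 50.7 FPKM in WT and 24.7, 47.3 and 33.5 FPKM in KO. Its log2 fold change was -0.63 with a standard error of 0.23 (limma, unadjusted p = 0.0286, adjusted p = 0.267), and the line with the highest KO value was KO replicate 2, as for *TJP3*. *PARD3*, the PAR complex scaffold, had 16.4 to 21.4 FPKM in WT and 11.02 to 15.8 FPKM in KO, with a log2 fold change of -0.41. *CRB3*, the Crumbs protein of epithelia, had 23.1 to 24.99 FPKM in WT and 17.3 to 20.9 FPKM in KO, with a log2 fold change of -0.31. *PARD3* and *CRB3* did not pass the unadjusted threshold in limma (unadjusted p = 0.058 and 0.0508, adjusted p = 0.308 and 0.298). The other 6 polarity genes tested had log2 fold changes from -0.32 to 0.24 and overlapping groups.

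The fourth gene was *PRSS8*, which encodes prostasin, a membrane protease required for the epidermal barrier in mice. It had 75.2, 76.2 and 76.1 FPKM in WT, a very narrow range, and 62.6, 60.8 and 43.2 FPKM in KO. The log2 fold change was -0.47, just under the size threshold (limma, unadjusted p = 0.0253, adjusted p = 0.261). *ST14*, which encodes the partner protease matriptase, had 267 to 340 FPKM in WT and 257 to 292 FPKM in KO, and the groups overlapped.

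Among the regulators of junctions, 2 genes were higher at the unadjusted threshold. *MYLK*, the gene of myosin light chain kinase, which contracts the actin ring at the junction, had 0.904, 0.387 and 1.38 FPKM in WT and 2.82, 1.22 and 3.60 FPKM in KO. KO replicate 2 lay below WT replicate 3, and the log2 fold change was 1.11 with a standard error of 0.40 (limma, adjusted p = 0.263). *TIAM1*, which encodes an exchange factor for RAC1, had 4.33, 2.98 and 4.15 FPKM in WT and 6.67, 4.52 and 8.78 FPKM in KO, without overlap, and a log2 fold change of 0.70 with a standard error of 0.26 (limma, adjusted p = 0.269). *RHOA*, the GTPase that acts through ROCK kinases on myosin, was higher in every KO library, with 142, 140 and 164 FPKM against 121, 125 and 135 FPKM in WT, but the log2 fold change was only 0.22 (limma, adjusted p = 0.407).

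**Figure D4:**
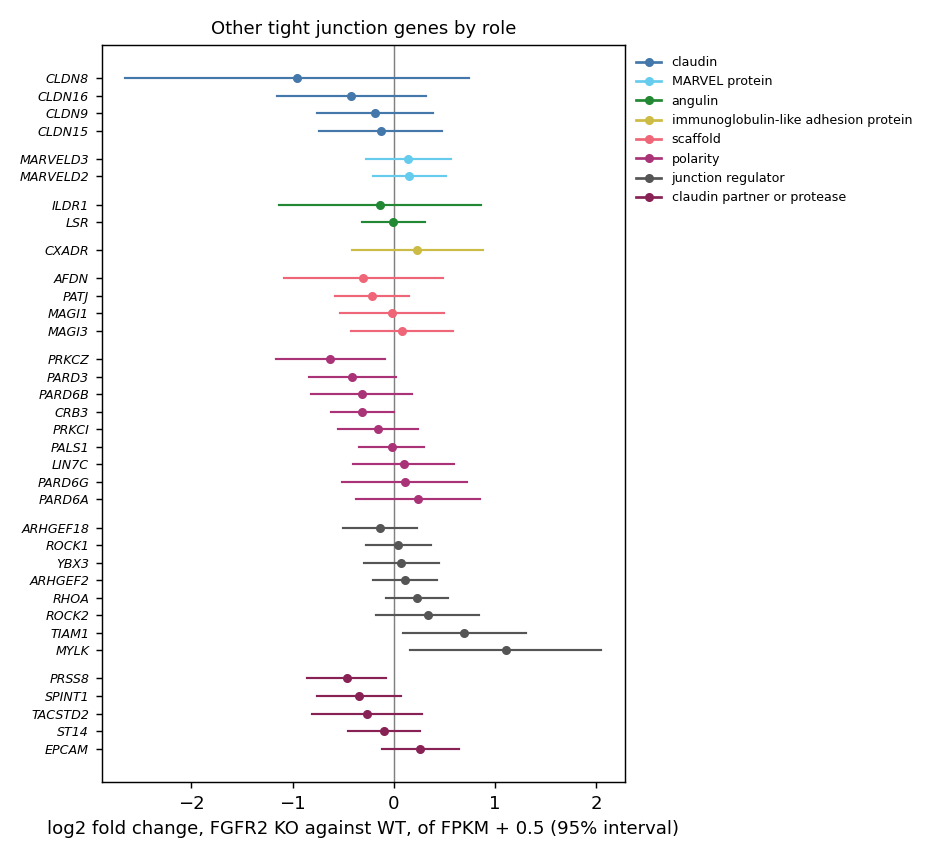
Log2 fold change of FPKM + 0.5 between FGFR2 KO and WT, with 95% intervals from limma, for the 35 other tight junction genes tested, grouped and coloured by role. The intervals of PRKCZ and PRSS8 lie below 0 and those of TIAM1 and MYLK above it, while the other 31 intervals include 0.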

How the data were processed

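The values analysed come from RNA-seq of HaCaT cells, with 3 libraries of WT and 3 of *FGFR2* KO lines. According to the submitters' processing notes and the study's methods, the authors trimmed the reads of stranded libraries with fastp 0.20.0 and quantified them with Kallisto 0.46.1 against GRCh38 and GENCODE 37. The authors deposited FPKM per gene, and how these were derived from the estimated counts is not given in the sources used here. Of 21493 listed genes, 18 Y copies of pseudoautosomal genes were left out, and symbols and positions were taken from GENCODE release 44. Between 71.2 and 78.4% of low values were whole fragments within 0.05, too few to recover reads for count tests. At the estimated depth, 1 fragment on 1 kb is worth 0.0115 to 0.0149 FPKM.

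Groups were taken from the sample titles. Genes whose mean level reached 0.5 FPKM were compared on log2(FPKM + 0.5) in R 4.3.3 by limma 3.58.1, with a mean-variance trend and Benjamini-Hochberg adjustment over all 12241 genes tested. Fold changes are on that scale and understate those of low genes. The test of single genes and of 4 ratios was the exact permutation test of scipy 1.17.1, two-sided. The genes, lists and tests were chosen with earlier results of these data known. Named were the 9 genes, *FGFR2*, the 3 genes most similar to each, members of the wider list past the unadjusted threshold, and its claudin, MARVEL and scaffold genes tested. *IVL*, *KRT1*, *VWF*, *COL1A1*, *CLDN23*, *DCN*, *CDH5*, *LUM*, *PARD3*, *CRB3*, *PRSS8*, *ST14* and *RHOA* were named after their values were seen. Alternatives were other pseudocounts (0.1 and 1), filters and scalings, library weights, a replicate block, variants of the empirical Bayes step, removal of chromosome medians and leaving out each library. Stretches of 31 bases shared between transcripts were counted in GENCODE 44. A gene of the wider list is not reported here.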

Additional observations from a re-analysis of the deposited data

How the results depend on the processing

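Under the alternatives tried, the log2 fold change of *TJP3* stayed negative, from -1.79 to -0.89, and *TJP3* passed the unadjusted threshold as lower in each limma fit. It passed the adjusted threshold only with library weights (-1.12, adjusted p = 0.0349), as did *FGFR2* (-2.66, adjusted p = 0.0191). Library weights called 1396 genes of all those tested, against 0 without them. They also turned *OCLN* (0.17), *TJP1* (-0.0374) and *CGN* (0.16). *CLDN7* was at 0.499 with library weights (limma, unadjusted p = 0.0117, adjusted p = 0.0631), just under the size threshold.

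The replicate numbers are shared by both groups, but same-numbered libraries did not deviate together (r = -0.21, 0.22 and 0.05). With the number as a replicate block, 0 genes were called and 1762 passed the unadjusted threshold, and *TJP3* had an adjusted p of 0.11 (limma).

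Under other scalings, the signs of 2 genes with differences near 0 turned. *CLDN4* was at -0.0725 with median-of-ratios scaling, -0.0883 with quantile normalization and -0.0767 with chromosome medians removed, and *OCLN* at 0.0233 with TPM scaling. *F11R* was at -0.349 with median-of-ratios scaling, -0.363 with quantile normalization and -0.335 with chromosome medians removed, beside -0.254 in the main fit. The unadjusted p-values in limma were 0.0382, 0.0434 and 0.0404, beside 0.108. The adjusted p-values were 0.324, 0.313 and 0.314, and *F11R* stayed under the size threshold. After median-of-ratios scaling the all-gene median was -0.0002, beside 0.09 without it.

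With each library left out in turn, values ranged from -0.16 to 0.26 for *CLDN4*, from -0.57 (without WT replicate 3) to 0.0572 (without WT replicate 2) for *CLDN1*, from -0.0948 to 0.0842 for *OCLN* and from -0.27 to 0.0848 for *CGN*. The sign held for *CLDN12* (-0.32 without WT replicate 3, -0.0217 without WT replicate 2), *TJP1* (0.055 without WT replicate 2, 0.31 without KO replicate 1), *CLDN7* (0.19 without WT replicate 3, 0.56 without WT replicate 2) and the ratios of *CLDN4* (0.0883 to 0.55) and *CLDN7* (0.38 to 0.84) to *CLDN1*. Values ranged from -0.38 to 0.0314 for the log2 ratio of *OCLN* to *TJP1*. The genes past the unadjusted threshold ranged from 633 (without KO replicate 3) to 2262 (without KO replicate 2), with 961 without WT replicate 1, and those among the 9 from 1 to 2, with *CLDN7* as the second without WT replicate 2. The cause of these changes was not tested.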
